A study of Homo sapiens with 16 samples.

Results

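The PARP family genes were examined for N6-methyladenosine (m6A) peaks in 2 prostate cancer lines, C4-2B, which is sensitive to enzalutamide, and MDV-R, which is resistant to it. The 10 genes were PARP1, PARP2, PARP3, PARP4, PARP6, PARP8, PARP9, PARP10, PARP12 and PARP14. Every merged region of the series and every called peak that overlapped the GENCODE span of a listed gene on hg38 was taken, which gave 19 of 36970 merged regions and 108 of 191974 peaks. PARP10 was a candidate of the study, chosen among other filters by differences in methylation and RNA expression between these same lines. The methylation difference came from these same libraries, so the values of PARP10 are given as a description with no test. The other 9 genes hold 12 of the 19 regions.

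MeRIP-seq pulls down RNA fragments that carry m6A with an antibody (IP) and sequences them beside unenriched RNA (input). The series holds 4 IP and 4 input libraries of each line, all wild type by their labels, grown in RPMI with serum and labelled day 3, with no drug in the labels. By the study's methods, however, MDV-R was kept in medium with enzalutamide, and none is named for C4-2B, so that the line and the drug in its medium cannot be told apart. C4-2B is a human prostate cancer line derived from LNCaP, and MDV-R was obtained from C4-2B by serial passage, so resistance is represented by 1 derived line. MDV-R titles name a further line as well, and groups follow the field for the cell line. Nothing in the labels says that replicates came from separate cultures, so p-values measure the spread between libraries, which may be technical.

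PARPs transfer ADP-ribose from NAD+ to proteins and nucleic acids. PARP1 and PARP2 build chains of it at DNA breaks, whereas most other members add a single unit, and several, among them PARP9, PARP10, PARP12 and PARP14, are induced by interferon. On mRNA, m6A is written by the METTL3 and METTL14 complex within a motif named DRACH (A, G or T, then A or G, then A, C, and A, C or T), of which GGAC is the best known core. It is known to gather near stop codons and in long internal exons.

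The sequences at the summits of the best covered regions outside PARP10 are shown because they place each peak in the coding sequence beside a methylation motif. Each is the hg38 reference on the strand of the gene, 5′ to 3′, and the capitals mark the GGAC nearest to the strongest summit where one lies within 50 nt of it, and otherwise the nearest DRACH match, so that a DRACH match other than GGAC may lie closer. PARP9 is on the minus strand at chr3:122528460-122528483 and chr3:122555504-122555528, PARP14 is on the plus strand at chr3:122699774-122699797, chr3:122700671-122700695 and chr3:122718536-122718560, and PARP8 is on the plus strand at chr5:50794992-50795015.
PARP9 exon 11: cagtatttgtGGACatgcacccag
PARP9 exon 4: ttgtgtacaaAGACTattgtagaga
PARP14 exon 6, upstream region: caacaatgtgGGACaccataaaaa
PARP14 exon 6, downstream region: tcaatcctgaGAACAaacaaaaagg
PARP14 exon 14: agtgcatcaaAGACTttgatgaaaa
PARP8 exon 12: aagtcacacaGGACctttggccgc
The A of the marked motif lay 7 nt upstream of the strongest summit in PARP9 exon 11 (-7), 5 nt downstream in PARP9 exon 4, 17 nt upstream in the first PARP14 region (-17), 7 nt downstream in the second, 4 nt upstream in PARP14 exon 14 (-4) and 48 nt upstream in PARP8 exon 12 (-48). Searched on the gene's own strand within 50 nt of each summit, GGAC was found in 5 of the 11 exonic regions (45.5%), beside 46.3% of all 15782 exonic regions. One of the 11 has its summit in an exon of GRINA, within the PARP10 span, and without the PARP10 span the count was 3 of 9 (33.3%). DRACH was found in 10 of 11 (90.9%), beside 87.8%, and within 25 nt in 10 of 11 beside 67.8%. The exception was the PARP4 region, whose nearest DRACH match lay 60 nt downstream of the summit. These matches are a description and do not identify the methylated base.

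C4-2B replicate 1 stood apart from the other lists and is named wherever it matters. Its list held 13191 peaks against 23254 to 30645 in the other 7, and its weakest called peak had 6 tags where the others reached down to 4. A tag is 1 deduplicated read. Library sizes were inferred from the peak statistics and not counted from reads. By that estimate the IP libraries held 0.864 to 1.21 M tags. The inputs held about 0.901 to 1.23 M tags in C4-2B and 1.60 to 2.97 M in MDV-R, so that input depth and cell line cannot be told apart. Among marker genes, 11 of 11 prostate luminal markers held a region, against 2 of 8 urothelial and 3 of 6 mesenchymal markers. A peak call is not a level of expression, so these counts do not settle the cell type. A region called in all 4 lists of a line was held by 8 luminal markers in C4-2B and 10 in MDV-R, by 1 and 2 urothelial and by 3 and 2 mesenchymal markers, beside 6791 and 8464 of all 20007 protein-coding genes. The urothelial region called in all 8 lists had its summit in BCL9L, which overlaps UPK2.

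PARP1, PARP2, PARP3, PARP6 and PARP12 held no merged region and no peak in any of the 8 lists, whereas PARP4, PARP8, PARP9, PARP10 and PARP14 held 1, 2, 4, 7 and 5 regions. Among all protein-coding genes, 56.9% held a region. PARP1, PARP2 and PARP3, which act at DNA breaks, were thus among the genes without a peak. A list holds called peaks alone, so the level of these transcripts is unknown, and a gene without a peak may carry m6A below the calling threshold or be little expressed. The region nearest to PARP12, an interferon-induced zinc finger member, lay 137 nt outside its span, and for the other 4 genes the distance was 8646 to 50200 nt.

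The 5 genes with a peak and the 5 without one differed in the length of their exons. The longest internal exon of the canonical transcript measured 565 nt in PARP8, 785 nt in PARP10, 836 nt in PARP9, 1080 nt in PARP4 and 2246 nt in PARP14. In the genes without a peak it measured 163 nt in PARP2, 227 nt in PARP3, 243 nt in PARP1, 265 nt in PARP6 and 298 nt in PARP12. The lengths of the 2 sets did not overlap. In each of the 5 genes with a peak, the longest internal exon itself held the strongest summit of a region. Among all protein-coding genes with a called region and at least 3 exons the same held for 24.4% of 10351. That share pools internal exons of any length and any number of regions, and none was computed for genes with long internal exons alone. A called region was found in 77.7% of the 2927 protein-coding genes whose longest internal exon reached 500 nt and in 54.4% of the 12413 genes where it was under 300 nt. Both limits were set after these values were seen, and no test was made.

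Of the 19 regions, 10 had their strongest summit in coding sequence, 7 in an intron, 1 in a 3′UTR and 1 upstream of the gene. Calls in all 8 lists were made for 7 of 19 regions, beside 25.9% of all 36076 regions called at least once. Without PARP10 the count was 5 of 12, and those lay in PARP9, PARP14 and PARP8. Regions called in all 4 MDV-R lists and no C4-2B list numbered 2, in PARP4 and PARP10, where 3.68% of all regions had that pattern. None was called in all 4 C4-2B lists and no MDV-R list, a pattern shown by 1.22% of all regions. With 4 lists against 4, Fisher's exact test cannot go below a two-sided p of 0.0286. After adjustment over all called regions that smallest p became 0.584. No region of the series could therefore pass, and none of the 9 genes did.

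**Figure D1:**
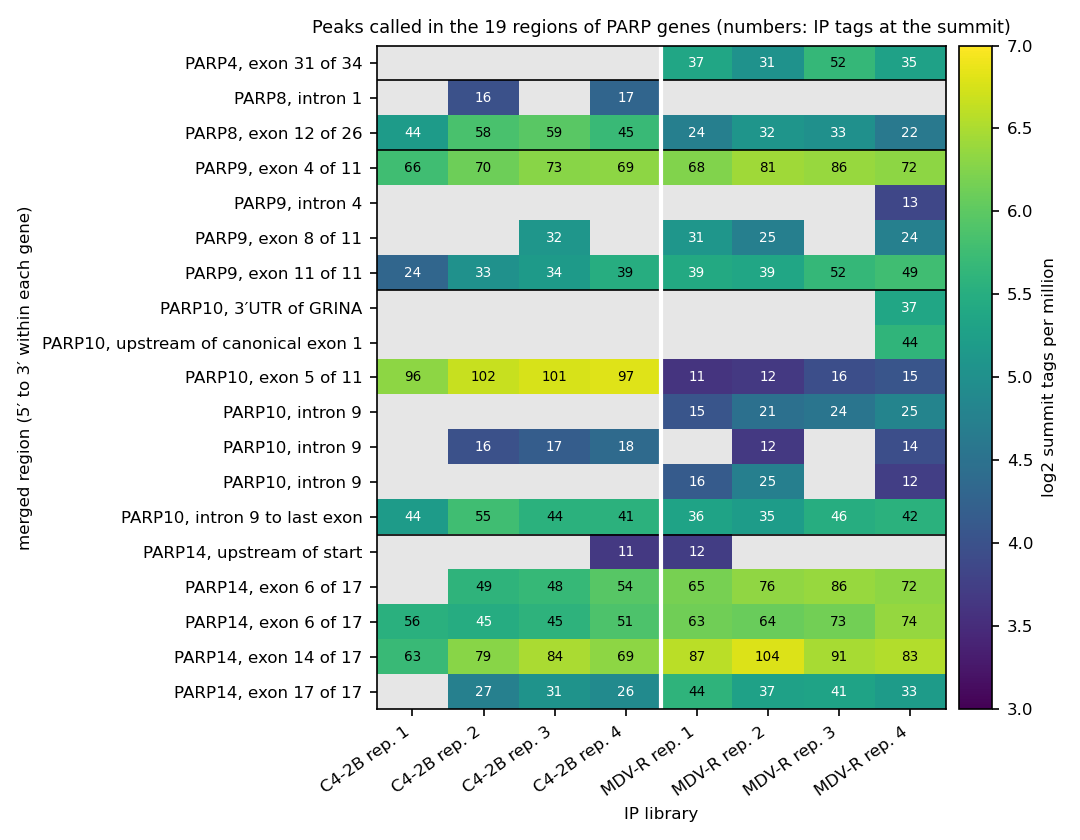
Peaks called in the 19 regions of the PARP genes (rows, 5′ to 3′ within each gene) in the 8 IP libraries (columns). Colour gives the log2 of summit CPM (summit tags scaled to 1 M tags of the library), the printed number is the count of IP tags at the summit, and grey means that no peak was called. The rows of PARP8 exon 12, PARP9 exons 4 and 11 and PARP14 exon 14 are filled in all 8 libraries, the PARP4 row in MDV-R only, and the exon 5 row of PARP10 runs from 96 to 102 tags in C4-2B and from 11 to 16 in MDV-R.

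Levels were compared in the regions called in all 8 lists, with limma over all 9327 such regions. The IP tags at the summit were scaled to library size (CPM, tags per 1 M tags). The local background was divided by the library's mean background (library units). The fold enrichment of the deposited lists divides IP tags by local background after 1 is added to each. The added 1 lowers the ratio where the background is low. The local background comes from the input and follows transcript abundance only roughly, since it is taken as the highest of several windows around the summit. These were bulk RNA libraries, in which fewer cells with a transcript and less of it per cell cannot be told apart. Over all 9327 regions the median difference of MDV-R minus C4-2B was 0.06 on the log2 scale for summit tags, -0.48 for background and 0.44 for fold enrichment, so differences in the latter 2 measures have to be read against those medians. Summit tags were higher in MDV-R in 19.8% of all regions and lower in 14.7%. Background was higher in 1.66% and lower in 11.0%, and fold enrichment higher in 3.41% and lower in 0.225%.

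PARP9 and PARP14, neighbours on chromosome 3, carried more IP tags in MDV-R in some of their regions. PARP9 pairs with the ubiquitin ligase DTX3L and reads ADP-ribose through its macrodomains, and PARP14 is a large macrodomain enzyme that adds single ADP-ribose units. The PARP9 region at chr3:122528051-122528930 lies in exon 11 of 11, with its strongest summit 97 nt before the end of the coding sequence (-97 nt). It held 19.9, 32.7, 36.4 and 45.2 CPM at the summit in C4-2B replicates 1 to 4 and 43.3, 41.4, 50.6 and 54.7 in MDV-R. Replicate 1 was the lowest of C4-2B, replicate 4 was the only one within the range of MDV-R. The difference was 0.55 on the log2 scale (SE 0.18, limma adjusted p = 0.0159), a 1.47-fold higher level in MDV-R. Without C4-2B replicate 1 it was 0.32 and did not pass (limma adjusted p = 0.0901). Local background differed by 0.31 (SE 0.44) and fold enrichment by 0.33 (SE 0.36), and neither passed (limma adjusted p = 0.654 and 0.545).

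The second PARP9 region called throughout, at chr3:122555293-122555955, has its summits in exon 4, the longest internal exon. Its summit CPM were 54.7, 69.3, 78.2 and 79.9 in C4-2B and 75.5, 86.1, 83.7 and 80.3 in MDV-R. The lines overlapped, and the log2 difference of 0.22 (SE 0.16) did not pass (limma adjusted p = 0.305). Its fold enrichment was 9.19 to 16.7 in C4-2B and 11.3 to 18.6 in MDV-R. Another PARP9 region, in exon 8 at chr3:122540516-122540963, was called in C4-2B replicate 3 with 32 tags and in MDV-R replicates 1, 2 and 4 with 31, 25 and 24 tags. One more, in intron 4, was called in MDV-R replicate 4 alone, with 13 tags.

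PARP14 held its strongest signal in its long exon 6 and in exon 14. In the exon 6 region at chr3:122700348-122701518 the summit CPM were 46.4, 44.6, 48.2 and 59.1 in C4-2B and 69.9, 68.0, 71.1 and 82.5 in MDV-R. Every MDV-R library lay above every C4-2B library, and the summit of C4-2B replicate 3 stood apart from the others within the exon. The difference was 0.56 on the log2 scale (SE 0.16, limma adjusted p = 0.00450), 1.47-fold, and it passed with any of the 8 libraries left out (adjusted p 0.00176 to 0.0353). The background at this region ranged from 7.66 to 19.7 units in C4-2B and from 8.27 to 22.8 in MDV-R, and fold enrichment differed by 0.54 (SE 0.36, limma adjusted p = 0.313), 0.11 above the median of all regions.

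The exon 14 region of PARP14 at chr3:122718274-122718830 held 52.2, 78.3, 90.0 and 79.9 CPM at the summit in C4-2B and 96.5, 110, 88.6 and 92.6 in MDV-R. C4-2B replicate 3 lay above MDV-R replicate 3, so the lines overlapped at that point, and the log2 difference of 0.39 (SE 0.17) did not pass (limma adjusted p = 0.0635). Its local background was 14.7 to 32.8 units in C4-2B and 16.1 to 46.9 in MDV-R. This was the highest IP level of the regions outside PARP10.

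A further pair of PARP14 regions was called in every list but that of C4-2B replicate 1. The upstream exon 6 region at chr3:122699527-122699965 held 48.5, 51.4 and 62.5 CPM at the summit in C4-2B replicates 2 to 4 and 72.1, 80.7, 83.7 and 80.3 in MDV-R. The region at chr3:122728087-122728792, in the last exon and upstream of the stop codon (-238 nt), held 26.7, 33.2 and 30.1 in C4-2B and 48.8, 39.3, 39.9 and 36.8 in MDV-R. Neither region overlapped between lines in the libraries that called it. In a fit over the 13507 regions called in at least 3 of 4 lists of each line, chosen after the data were seen and leaving out the missing library, the log2 differences were 0.55 (SE 0.16) and 0.45 (SE 0.16; limma adjusted p = 0.0115 and 0.0384). Their fold enrichment differed by 0.37 and -0.27 and did not pass (limma adjusted p = 0.518 and 0.652). The last PARP14 region lay across the gene start, with 11 tags in C4-2B replicate 4 and 12 in MDV-R replicate 1.

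**Figure D2:**
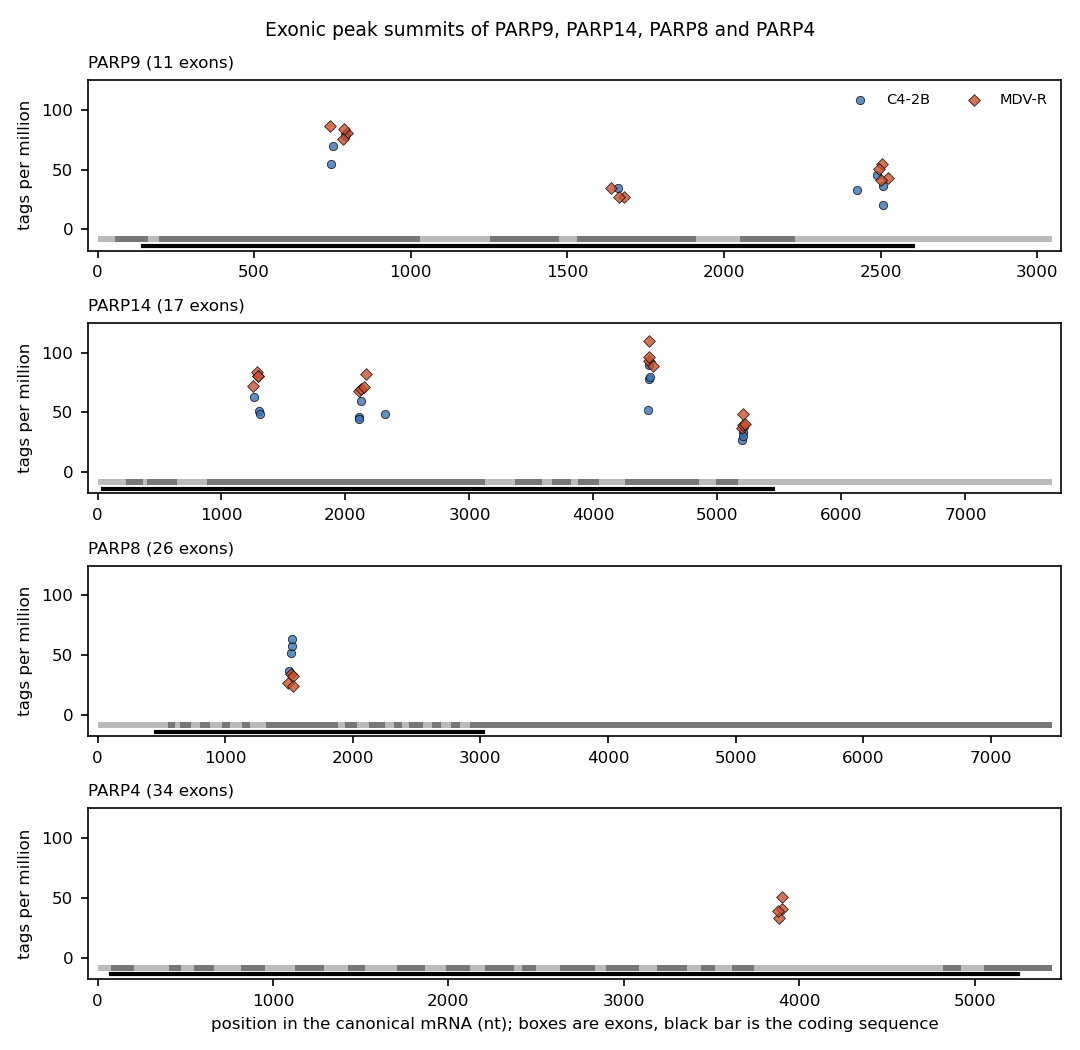
Exonic peak summits of PARP9, PARP14, PARP8 and PARP4 along the canonical mRNA (x axis, nt) with the summit CPM of each library (y axis; circles C4-2B, diamonds MDV-R). Boxes are exons and the black bar is the coding sequence. PARP4 has summits in MDV-R only, and 1 C4-2B summit in exon 6 of PARP14 lies apart from the others. The MDV-R points stand above those of C4-2B in exon 6 of PARP14 (68.0 to 82.5 against 44.6 to 59.1 in its downstream region) and below them in PARP8 exon 12.

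PARP8, which adds single ADP-ribose units, went the other way. Its region at chr5:50794764-50795300, in exon 12 of 26, held 36.5, 57.5, 63.2 and 52.1 CPM at the summit in C4-2B and 26.6, 34.0, 32.1 and 24.5 in MDV-R. All MDV-R libraries lay below all C4-2B libraries. The log2 difference was -0.82 (SE 0.17, limma adjusted p = 1.79e-04), a level 1.76-fold lower in MDV-R, and it passed with any library left out. The local background fell with it, from 6.83, 12.2, 3.92 and 9.85 units in C4-2B to 1.21, 3.03, 1.88 and 2.66 in MDV-R, again without overlap. That difference was -1.86 (SE 0.45, limma adjusted p = 0.00989), but with each library centred on its median it was -1.38 and did not pass (limma adjusted p = 0.0982), nor did it without MDV-R replicate 1 (limma adjusted p = 0.0596). The background rested on few reads, equal to 1.43 to 5.00 input tags per extension window in C4-2B and 0.998 to 3.00 in MDV-R, ranges that overlapped. Fold enrichment was 11.1, 11.6, 27.0 and 12.0 in C4-2B and 18.3, 16.9, 20.7 and 12.8 in MDV-R, and its difference of 0.25 did not pass (limma adjusted p = 0.661). At so low a background, the 1 added to tags and to background lowers that ratio. The other PARP8 region, at chr5:50667084-50667800 in intron 1, was called in C4-2B replicates 2 and 4 with 16 and 17 tags and in no MDV-R list. A lncRNA on the other strand, ENSG00000289056, covers it, and the origin of those tags by strand was not tested.

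PARP4, which is part of the vault particle, had a peak in MDV-R only. The region at chr13:24435121-24435600 lies in exon 31 of 34, the longest internal exon, and was called in 4 of 4 MDV-R lists and 0 of 4 C4-2B lists (Fisher's exact test p = 0.0286, adjusted p = 0.584). Its MDV-R summits held 37, 31, 52 and 35 tags, with a fold enrichment of 4.23, 5.56, 2.89 and 4.29. The 4 summits fell within 25 nt of each other. They were weak peaks of their lists, at the percentiles 32.6, 40.0, 23.9 and 33.6 by -log10 p, and none was left when all lists were shortened to the length of the shortest. The local background was 15.2 to 50.7 units, above that of the PARP8 region in either line. The background in C4-2B is not known, because no peak was called there.

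**Figure D3:**
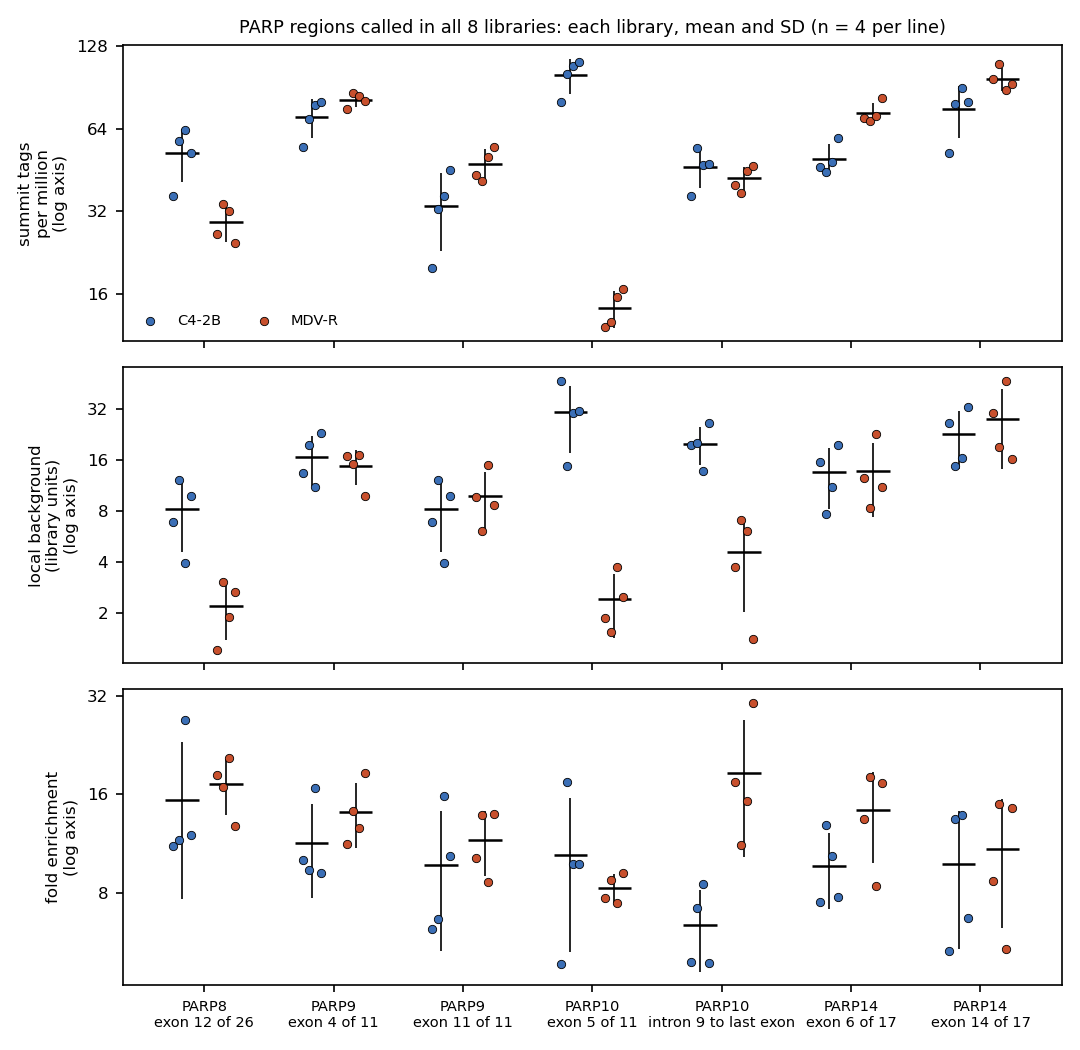
The 7 regions called in all 8 libraries, with summit CPM, local background in library units and fold enrichment, each on a log axis. Points are libraries (blue C4-2B, red MDV-R), the horizontal bar is the mean and the vertical line the SD (n = 4 per line). The lines separate in tags for PARP8, PARP10 exon 5 and PARP14 exon 6, and in background for PARP8 and both PARP10 regions. The second PARP10 region was measured in the last exon in C4-2B and in intron 9 in MDV-R. PARP10 was chosen on this contrast, and the share of all regions that separate likewise was not computed.

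PARP10 adds single ADP-ribose units and moves between nucleus and cytoplasm. It lies on the minus strand of chromosome 8 and held 7 regions and 41 peaks, the most of the 10 listed genes. In the region of exon 5, the longest internal exon, at chr8:143983422-143986232, the summit tags were 96, 102, 101 and 97 in C4-2B and 11, 12, 16 and 15 in MDV-R. All 8 lists called it, and mean levels, scaled to library size, differed 7.01-fold. Its local background was 46.6, 14.7, 30.3 and 31.3 units in C4-2B and 1.85, 1.54, 3.75 and 2.47 in MDV-R. Fold enrichment, with 1 added to tags and to background, overlapped between the lines at 4.85 to 17.4 and 7.44 to 9.20. The summits of C4-2B and of MDV-R replicate 3 lay at positions 143984918 to 143984937. Those of MDV-R replicates 1, 2 and 4 lay apart within exon 5, at 143985059, 143985080 and 143985227. For those replicates, tags, background and fold enrichment do not compare the same position with C4-2B. In MDV-R the background equalled 1.52 to 2.01 input tags per extension window, so the denominator there rests on very few reads. When only as many of the strongest peaks were kept in each list as the shortest one holds, the exon 5 region was called in 4 of 4 C4-2B lists and 0 of 4 MDV-R lists.

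The merged region at the 3′ end of PARP10, chr8:143976809-143978897, joined sites in an intron and an exon. Summits within 150 nt of a neighbour were joined into sites, a rule chosen after the data were seen. A site in exon 11, around the stop codon and the start of the 3′UTR, was called in 4 of 4 C4-2B lists with 44, 55, 44 and 41 tags and in 2 of 4 MDV-R lists with 23 and 14. A site near the 3′ end of intron 9 was called in 3 C4-2B lists with 17 to 19 tags and in all 4 MDV-R lists with 36, 35, 46 and 42. Read as 1 region, the fold enrichment was 4.94, 7.19, 8.52 and 4.91 in C4-2B and 17.5, 11.2, 15.3 and 30.4 in MDV-R, without overlap. Those C4-2B values were measured in the last exon and the MDV-R values in the intron, so they do not compare the same site. At the intronic site alone the fold enrichment was 6.74 to 7.68 in the 3 C4-2B lists and 11.2 to 30.4 in MDV-R.

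The remaining sites of intron 9 were called mostly in MDV-R. The region at chr8:143982434-143983301 had calls in 0 lists of C4-2B and in 4 of MDV-R with 15, 21, 24 and 25 tags, and that at chr8:143979203-143979632 in 3 MDV-R lists but 0 from C4-2B, with 12 to 25 tags. Between them, chr8:143980675-143981537 was called in 3 C4-2B lists with 16 to 18 tags and in 2 MDV-R lists with 12 and 14. A site at the start of exon 8 and in the short intron before it was called in 3 C4-2B lists with 59 to 67 tags and in 2 MDV-R lists with 15 and 17.

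Summed over all called summits of PARP10 within the canonical transcript, introns took 32.4%, 18.2%, 14.1% and 15.1% of the tags in C4-2B replicates 1 to 4 and 85.9%, 90.0%, 64.2% and 75.3% in MDV-R. The ranges did not overlap, and the strongest peak of the gene was in coding sequence in all 4 C4-2B lists and in an intron in all 4 MDV-R lists. PARP10 was chosen on this contrast, and such shares were not computed over all genes. Whether intronic calls differed between the lines in general was therefore not tested. The share of C4-2B replicate 1 rested on 1 summit with 67 tags, in the short intron of the last site described above. At that site the summits of C4-2B replicates 3 and 4 lay in the exon. Exonic tags were 140 to 207 per list in C4-2B and 11 to 39 in MDV-R, while intronic tags were 34 to 67 in C4-2B and 67 to 110 in MDV-R. In the other 4 genes with a peak, introns held at most 27.4% of the tags of any list. The 2 regions upstream of the canonical PARP10 transcript, within the span of the gene, were called in MDV-R replicate 4 alone, with 37 and 44 tags, and the first of them had its summit in the 3′UTR of GRINA, which overlaps PARP10 on the other strand. Which strand these tags came from was not tested.

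**Figure D4:**
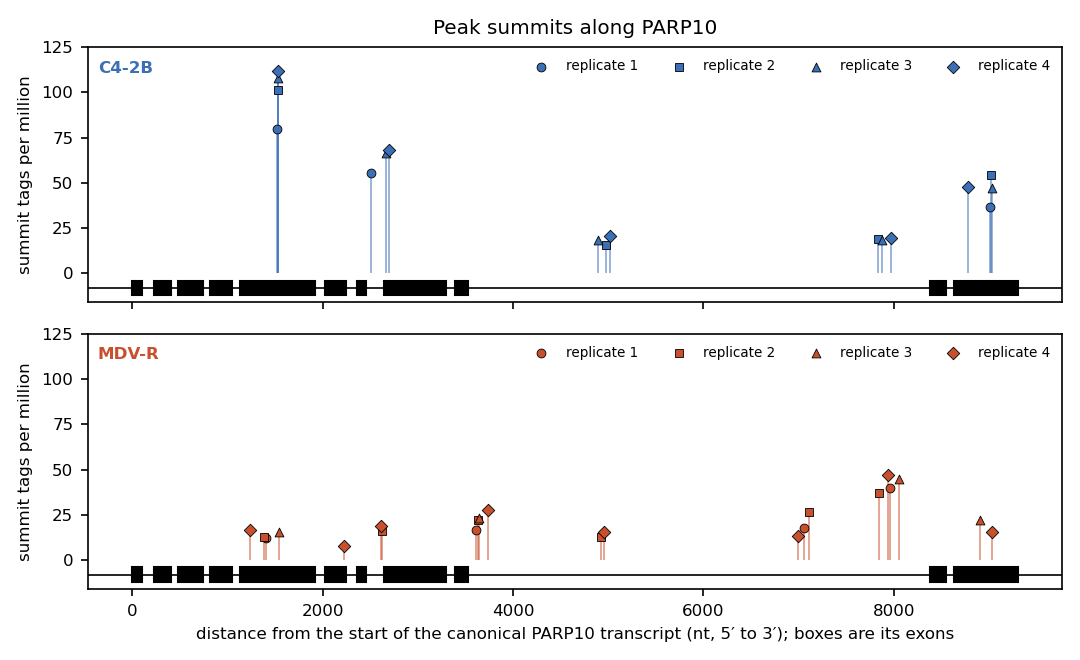
Peak summits along PARP10, with the distance from the start of the canonical transcript on the x axis (nt, boxes are the 11 exons) and the summit CPM on the y axis, for the 4 libraries of C4-2B (top) and of MDV-R (bottom). The tall C4-2B peaks stand over exon 5 (96 to 102 tags), whereas the highest MDV-R peaks stand in intron 9 (35 to 46 tags).

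Other genes of ADP-ribose biology are given as counts of regions tested. Over all 9327 regions, summit tags were higher in 19.8% and lower in 14.7%, and the counts were not tested against those shares. The 9 listed genes outside PARP10 held 5 tested regions. Summit tags were higher in 2 of these (PARP9 exon 11 and PARP14 exon 6) and lower in 1 (PARP8). Their median log2 difference was 0.39 against 0.06 over all regions. The other PARP family genes were TNKS, TNKS2, TIPARP, PARP11, ZC3HAV1, PARP15 and PARP16. They held a region in 5 of 7 genes, beside 56.9% of all protein-coding genes. Of their 6 tested regions 1 was higher and 1 lower (median -0.10). TIPARP, a target gene of the aryl hydrocarbon receptor, was higher by 0.43 in 1 coding region (SE 0.16, limma adjusted p = 0.0344). Its other tested coding region differed by 0.33 and did not pass (limma adjusted p = 0.109). ZC3HAV1, an antiviral zinc finger protein, was lower by 0.61 in its coding region (log2 difference -0.61, SE 0.16, limma adjusted p = 0.00233). The local background was lower there too (-1.45, SE 0.41, limma adjusted p = 0.0248). Its tested intronic region differed by 0.03 in tags and did not pass (limma adjusted p = 0.924). Enzymes that remove ADP-ribose held 4 tested regions, of which 1 was higher and 0 lower (median 0.09); that region had its summit in FLRT1, a gene within the MACROD1 span, and the tested region of OARD1 had its summit in NFYA.

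Over all 9327 regions, 19.8% were higher and 14.7% lower in summit tags. Partners, readers and suppliers of NAD+ held 5 tested regions, of which 3 were higher in MDV-R and 0 lower (median 0.43). They were DTX3L, the partner of PARP9 (0.43, SE 0.17, limma adjusted p = 0.0429), RNF146, a ubiquitin ligase that reads ADP-ribose chains (0.57, limma adjusted p = 0.00430), and NMNAT1, which makes NAD+ in the nucleus (0.44, limma adjusted p = 0.0421). Among interferon-response genes other than the PARPs, the single region of MX1 had its summit in TMPRSS2. These genes held a region in 10 of 15, beside 56.9% of all protein-coding genes. Of their 8 tested regions, 0 were higher and 2 lower, both in introns, of ISG15 (log2 difference -0.63, SE 0.16, limma adjusted p = 0.00222) and IFIH1 (-0.58, SE 0.18, limma adjusted p = 0.00811), at a median of -0.19. In fold enrichment, no region of any of these 4 lists or of the 9 PARP genes passed in either direction. Over all regions, 3.41% were higher and 0.225% lower.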

How the data were processed

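For the deposited files the authors used STAR 2.7.0 with hg38 and GENCODE 39, then SAMtools 1.10 to keep unique, deduplicated alignments, and MACS2 3.0.0a6 on every IP library with input as control (extension 100 nt, genome size 300000000), so peaks are per replicate. The deposited lists give for each peak a fold enrichment (a ratio), a −log10 p-value, a −log10 q-value, a score made from it, and a summit; the merged list gives positions without values. IP tags and local background were recovered from fold enrichment and p-value, which solved at least 99.99% of peaks per list. Library sizes, which scale every CPM value, were inferred from the recovered backgrounds and the stated genome size. A region counted as called at 1 bp of overlap. Summits were placed with GENCODE 44 on the same build. Fisher's exact test and limma 3.58.1 (R 4.3.3) were adjusted by Benjamini-Hochberg over all regions, with a threshold of 0.05. Both limma and the recovery of tags were also run on simulated data, whose values are not given here. For the tested PARP regions the SE was 0.16 to 0.18 for summit tags, 0.36 for fold enrichment and 0.40 to 0.45 for background. The latter 2 measures could thus miss larger differences, and a difference that did not pass is not shown to be absent. Alternatives were stricter or equally long lists, other overlaps, own merging, exonic summits, centring, pseudocounts, pairing and leaving out each library. The members, gene lists and tests were chosen with earlier results of these data known. Named are all 10 genes, in full the regions called in all 8 lists or in at least 3 more lists of 1 line. Tool versions are from the submitters' processing notes. The study's own differential test on reads was not run here.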

Additional observations from a re-analysis of the deposited data

Results flagged for a closer look

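Within groups of 4 libraries, 4 of 54 sets of values had a library that lay far from the other 3 by Dixon's ratio, a test that marks about 1 in 20 such sets by chance. In C4-2B, replicate 3 had a fold enrichment of 27.0 in PARP8 exon 12 against 11.1 to 12.0 in the others, and of 16.7 in PARP9 exon 4 against 9.19 to 10.1. In MDV-R, replicate 3 had a fold enrichment of 5.21 in the last exon of PARP14 against 10.6 to 11.5 in the others, with a local background there of 20.6 units against 7.42 to 9.67.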

How the results depend on the processing

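Calls of the 19 regions depended on the length of the lists. With all lists shortened to the length of the shortest, 12 regions were called at least once, 0 in all MDV-R and no C4-2B lists and 1, PARP10 exon 5, in all C4-2B and no MDV-R lists. With the strongest summit required in an exon, 10 regions remained to count and 1 was called in MDV-R only. Leaving out 1 library gave 16 to 19 regions called at least once, 7 to 9 in every list, 2 to 3 in MDV-R only and 0 in C4-2B only. Summit tags were higher in MDV-R in 1 to 3 of the 5 tested regions and lower in 1 with a library left out, and without C4-2B replicate 1 the PARP9 last exon was lost. Background was lower in 0 to 1 (0 without MDV-R replicate 1) and 0 when centred. No fold enrichment passed under any setting run. Centred, the fold enrichment differences turned to -0.07 and -0.05 in PARP9 exons 11 and 4, -0.25 in PARP14 exon 14 and -0.15 in PARP8, and the background of PARP9 exon 4 to 0.34. With a library left out, directions turned in values that did not pass, namely PARP14 exon 14 fold enrichment (-0.10 to 0.45) and background in PARP9 exon 11 (-0.00 to 0.54), PARP9 exon 4 (-0.33 to 0.03), PARP14 exon 6 (-0.28 to 0.22) and PARP14 exon 14 (-0.03 to 0.49). GGAC was found in 3 of 11 regions with windows of 25 nt (27.3%, beside 27.7% of all exonic regions), and DRACH in 10 (90.9%, beside 67.8%). The causes were not tested, apart from the fewer peaks of shorter lists.

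The replicate numbers did not pair the libraries, since deviations of same-numbered libraries correlated at -0.07 to 0.04. With the number as a replicate block, summit tags were higher in 3 regions and lower in 1, as PARP14 exon 14 then passed (0.39, limma adjusted p = 0.0355). It also passed without C4-2B replicate 3, when centred (0.31, limma adjusted p = 0.0310) and with a pseudocount of 5 CPM (0.37, limma adjusted p = 0.0386). The block left 0 regions changed in fold enrichment and 1 lower in background, and lists paired by number gave 2 regions in MDV-R only. The local background rests on a handful of input tags, and levels are known at called peaks alone.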
